A study of Mus musculus with 6 samples.

Results

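Starburst amacrine cells, the cholinergic interneurons of the retina, were followed in single cells of the postnatal mouse retina. A cell was taken as a starburst member when it held at least 1 unique molecular identifier (UMI, a tag that marks 1 captured RNA molecule) of *Tfap2b*, UMIs of at least 2 of the 6 markers *Chat*, *Slc18a3*, *Slc5a7*, *Fezf1*, *Megf10* and *Isl1*, and no UMI of *Pou4f1*, *Pou4f2*, *Slc6a9*, *Rlbp1* or *Mki67*. This rule found 216 members among 39423 cells of the postnatal libraries. The levels of these 12 genes therefore chose the cells and are given below as a description, with no test.

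Starburst cells release both acetylcholine and GABA and are known for their part in direction selectivity. They lie as ON and OFF populations on either side of the inner plexiform layer, and before the retina responds to light their acetylcholine drives spontaneous waves of activity. *Chat* encodes the enzyme that makes acetylcholine, *Slc18a3* the transporter that loads it into vesicles, and *Slc5a7* the transporter that takes up choline. *Isl1* and *Fezf1* encode transcription factors, the latter known from ON starburst cells, and *Megf10* encodes a surface protein with which starburst cells space themselves from their neighbours.

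The series holds 6 single-cell libraries of wild-type C57BL/6J neurosensory retina, at E14, E16, P0, P3 (replicates 1 and 2) and P6, with 4 to 8 retinas pooled for a time point and live cells sorted before capture. No genotype, drug or lesion was compared, and the 4 postnatal libraries were used here. The filters left 57690 barcodes in the 6 libraries, each with 300 to 6000 genes and no more than 15% of its UMIs mitochondrial. Whole libraries held between 32624738 and 107793173 UMIs, library pairs shared between 0 and 68 kept barcodes, and only P3 had a second library. P3 replicate 2 stood apart from the other postnatal libraries in being counted on an older gene list and in the depth of its photoreceptor reference cells (no *Tfap2b* and at least 2 of 5 photoreceptor genes), a median of 7063 UMIs against 2767.5 to 3519.5 in the other postnatal libraries. *Sox2* was seen in 24.0% of these cells after thinning to 2000 UMIs, against 7.22% to 10.9% in the other libraries (63.2% against 11.5% to 23.1% unthinned), and its level there of 146 CPM was near the 131 CPM of P0. E16 shared the older gene list.

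The promoter sequences of the cholinergic locus are shown because the genes that define the members lie inside one another there. In the mouse GRCm38 build, *Chat* (chr14:32408203-32465989, minus strand) spans *Slc18a3* (chr14:32462438-32464850, minus strand), and the antisense gene *Gm2990* (chr14:32465042-32483548, plus strand) overlaps the start of *Chat*. The 250 bases before the RefSeq start of *Chat* (GRCm38.p6, chr14:32465910-32466159, minus strand) and of *Slc18a3* (chr14:32464851-32465100, minus strand) are printed 5′ to 3′. Capitals mark CACGTG, the letters of an E-box that reads the same on both strands.
*Chat*: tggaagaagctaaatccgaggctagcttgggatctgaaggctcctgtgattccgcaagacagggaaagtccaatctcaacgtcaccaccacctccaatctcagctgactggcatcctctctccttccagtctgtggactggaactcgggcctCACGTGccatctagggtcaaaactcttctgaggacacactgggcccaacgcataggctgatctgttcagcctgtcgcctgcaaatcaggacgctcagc
*Slc18a3*: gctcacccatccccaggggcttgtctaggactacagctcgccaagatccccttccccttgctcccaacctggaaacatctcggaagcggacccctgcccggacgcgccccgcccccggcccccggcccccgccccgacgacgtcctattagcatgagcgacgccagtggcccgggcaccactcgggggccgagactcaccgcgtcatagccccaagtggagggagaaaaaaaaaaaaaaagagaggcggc
CACGTG stood in the *Chat* window and not in that of *Slc18a3*, and 6.04% of 32536 RefSeq promoter windows of this length held it. The letters CTAATTG and CTAATGG, searched as LIM-homeodomain motifs, and CATTGT, searched as a SOX motif, were in neither window on either strand, and stood in 1.77%, 1.70% and 10.5% of all windows. A match is a description of these letters and not a bound site. The window of *Chat* lies within *Gm2990*, which matters for the values of *Gm2990* given below.

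Members were found in all 4 postnatal libraries, at very different rates. At P0 they were 156 of 10407 kept cells, or 1.50% (exact 95% Clopper-Pearson interval 1.27% to 1.75%). At P3 they were 14 of 12303 in replicate 1, 0.114% (0.0622% to 0.191%), and 43 of 3113 in replicate 2, 1.38% (1.00% to 1.86%). At P6 they were 3 of 13600, 0.0221% (0.00455% to 0.0645%). The 2 libraries of the same age thus differed by more than their counting intervals, and P3 replicate 2 lay near P0 while P3 replicate 1 lay nearer P6. As a share of *Tfap2b* cells the values ran 7.09%, 0.598%, 3.03% and 0.293% in the same order. With 1 library at P0 and at P6 no test over age was possible, and age, library and cell recovery cannot be told apart. These intervals, and all Poisson and binomial intervals below, cover counting error only.

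The depth of the members did not follow these shares. Members held a median of 10482, 10520, 4918 and 6154 UMIs at P0, P3 replicate 1, P3 replicate 2 and P6, against 5729, 4722, 6956.5 and 4754 in the other *Tfap2b* cells. When each cell was thinned to 2000 UMIs before the rule was applied, the shares were 0.967%, 0.0720%, 0.803% and 0.0170%, lower in every library and in the same order. Of the 216 members, 43 held 2 of the 6 markers, 89 held 3, 66 held 4, 17 held 5 and 1 held all 6. A cholinergic gene was detected in 181 members, and 32 had *Isl1* and *Megf10* as their only markers, 16 of them in P3 replicate 2 and 15 at P0. A further 74 *Tfap2b* cells had at least 2 markers but were left out for an excluded gene, 53 of them in P3 replicate 2.

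**Figure D1:**
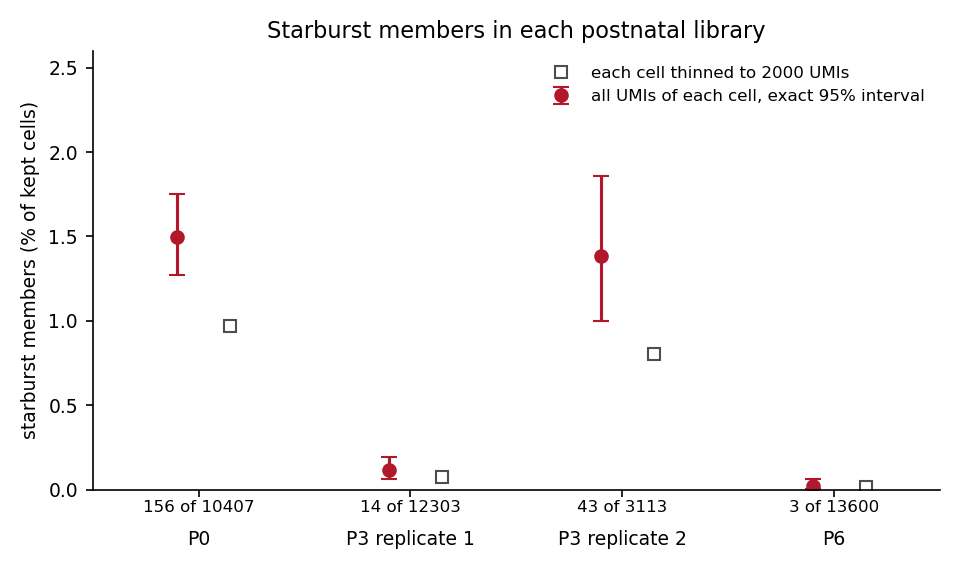
Starburst members as a percentage of kept cells (y axis) in each postnatal library (x axis, with members of kept cells). Filled circles with bars are the shares with exact 95% intervals, and open squares are the shares after thinning each cell to 2000 UMIs, 0.967% at P0 and 0.803% in P3 replicate 2 against 0.0720% in P3 replicate 1 and 0.0170% at P6.

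The defining markers were present unevenly: *Slc18a3* was strong in the members of every library, *Chat* and *Fezf1* were weaker, and *Slc5a7* was barely detected. *Isl1* was seen in 156 of 156 members at P0, and its level, in CPM (the gene's UMIs per 1000000 UMIs summed over the cells), was 2110, 2558, 909 and 916 at P0, P3 replicate 1, P3 replicate 2 and P6, against 50.1, 3.96, 37.5 and 24.5 in the other *Tfap2b* cells. *Slc18a3* was at 227, 338, 164 and 485 CPM in the members and at 2.66, 0.412, 3.17 and 0 in the others. *Megf10* was at 332, 353, 276 and 485 CPM, against 9.72, 6.35, 14.6 and 8.43. Each of these 3 genes was far above the comparison cells in every library.

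*Chat* was lower and more uneven, at 48.0, 213, 20.03 and 108 CPM in the members and at most 0.621 CPM in the other *Tfap2b* cells. It was highest in P3 replicate 1 and lowest in P3 replicate 2, where 5 of 43 members held a *Chat* UMI, so that the 2 libraries of one age marked its extremes. *Fezf1* was at 36.0, 7.35, 24.0 and 162 CPM, and was found in 39 members at P0, 1 and 6 at P3 and 2 at P6. *Slc5a7* gave 7 UMIs in all members, 4 of them in P3 replicate 1 and 3 at P6, and 0 at P0 and in P3 replicate 2. *Tfap2b*, which every member and every comparison cell had to hold, was at 1064, 912, 1458 and 1024 CPM in members and 1198, 1136, 641 and 774 CPM in the others.

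**Figure D2:**
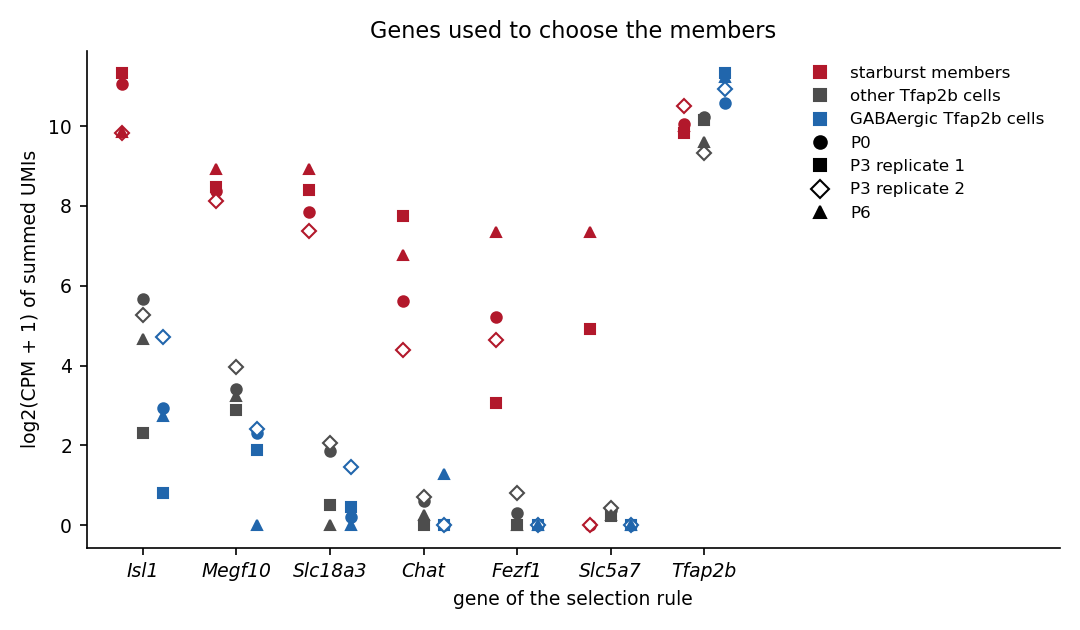
Levels of the genes that chose the cells, as log2(CPM + 1) of summed UMIs (y axis), with 1 symbol for each library and colours for members, other Tfap2b cells and GABAergic Tfap2b cells. Isl1, Megf10 and Slc18a3 of the members stand above both comparison groups in all 4 libraries, Chat varies among libraries, and Slc5a7 is at 0 in the members of P0 and P3 replicate 2.

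Because these genes defined the group, the cells just outside the rule were set beside those just inside it. The 132 *Tfap2b* cells with only 1 marker and no excluded gene had 259 CPM of *Isl1* and 7.12 CPM of *Slc18a3*, the 43 members with 2 markers 1801 and 94.8 CPM, and the 173 members with 3 or more 2018 and 255 CPM. The rule used these 2 genes. Genes outside the rule were not all placed alike. *Pnoc* was at 26.1, 339 and 411 CPM in these 3 sets, *Sox2* at 94.9, 566 and 638 CPM, and *Sv2c* at 0, 76.4 and 93.5 CPM. In CPM, the members with 2 markers were nearer to those with 3 or more for these 3 genes and for *Isl1*. They were nearer to the cells with 1 marker for *Slc18a3* and for *Scg2*, at 66.4, 593 and 1383 CPM. *Chat*, at 1.19, 0 and 66.5 CPM, and *Fezf1*, at 0, 0 and 40.1 CPM, were not detected in the members with 2 markers. Both are genes of the rule, and a member with 2 markers lacks the other markers by definition. Of the 43 such members, 32 held *Isl1* and *Megf10*, so these zeros are no finding about the cells.

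Shares of cells with a UMI are given at equal depth as a description, since *Slc18a3* and *Chat* helped to choose the members. The GABAergic *Tfap2b* cells, described below, lack the excluded genes and are not members. They therefore hold fewer than 2 of the 6 markers by definition, and their low shares are no test. At P0, after thinning to 2000 UMIs, *Slc18a3* was seen in 32.7% of members and 0.143% of photoreceptor reference cells, and *Chat* in 11.5% and 0 of 699, with 0 of 1109 for either gene in the GABAergic *Tfap2b* cells. Unthinned, *Chat* was in 34.6% of P0 members and *Slc18a3* in 84.6%. The median depths were 10482 UMIs in these members, 5702.5 in the GABAergic cells and 3519.5 in the photoreceptor reference cells.

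The members were then compared with the other 6769 *Tfap2b* cells of the same libraries, to ask which genes set starburst cells apart from the rest of the cells with a *Tfap2b* UMI. These comparison cells did not have to lack the 5 excluded genes and were not amacrine and horizontal cells alone: *Mki67* was at 103 to 273 CPM and *Rlbp1* at 6.38 to 257 CPM in them, and their sums of photoreceptor and progenitor genes are given below. Peptide and release genes (*Pnoc*, *Scg2*, *Rims1*), the extrasynaptic GABA receptor gene *Gabrd* and the *Megf10* relative *Megf11* were higher in the members in every library, by log2 fold changes between 5.65 and 7.41. Genes of dividing cells, glia, photoreceptors and most other amacrine transcription factors were lower. UMIs were summed over the members and over the others in each of the 4 libraries and tested in edgeR by quasi-likelihood, each library forming a block. The spread was pooled fully across genes, so a gene's own spread among libraries did not set its p-value. Outside the 12 genes of the rule, 666 of 11203 genes tested were higher in the members (5.94%) and 1441 lower (12.9%) at an adjusted p under 0.05, and the median log2 fold change of all genes was -0.14. The list counts of this comparison given below are to be read against these 5.94% and 12.9%. Where groups are said not to overlap, here and below, this describes the printed sums only. The share of all tested genes without overlap is not given, and many genes so described were picked for large changes.

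The counts of calls moved with the libraries and the fit. Without P0 they were 396 higher and 499 lower, without P3 replicate 1 395 and 912, without P3 replicate 2 508 and 1247, and without P6 717 and 1284. When the comparison cells also had to lack the 5 excluded genes, 475 genes were higher and 779 lower.

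The gene with the largest fold change was *Pnoc*, which encodes the precursor of the opioid-like peptide nociceptin. It was at 321, 1544, 260 and 916 CPM in the members at P0, P3 replicate 1, P3 replicate 2 and P6, and at 4.86, 1.32, 4.96 and 0.383 CPM in the other *Tfap2b* cells. All 4 member sums lay far above all 4 comparison sums, with a log2 fold change of 7.41 (SE 0.33, adjusted p = 1.30e-106 in edgeR's quasi-likelihood test). At 2000 UMIs per cell *Pnoc* was seen in 35.9% of P0 members, in none of 1109 GABAergic cells and in none of 699 photoreceptor reference cells.

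*Gabrd*, the delta subunit of GABA-A receptors that act outside synapses, was at 148, 250, 32.0 and 647 CPM in the members and at 2.51, 0.330, 0.965 and 0.192 CPM in the others. The groups did not overlap, P3 replicate 2 being the lowest member sum (log2 fold change 7.02, SE 0.35, adjusted p = 1.61e-83, edgeR). *Scg2*, whose product secretogranin II is packed into dense-core vesicles, was at 1083, 4095, 344 and 8460 CPM in members and at 26.3, 26.1, 14.1 and 28.7 CPM in the others. The member sums were uneven, with P6 highest and P3 replicate 2 lowest, and all were above every comparison sum (log2 fold change 6.24, SE 0.34, adjusted p = 4.58e-72, edgeR).

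*Megf11* encodes the relative of MEGF10 that takes part in the same spacing of cells, and it was not used to choose members. Its level was 179, 294, 88.1 and 485 CPM in the members and 5.24, 1.48, 5.45 and 0.575 CPM in the others. Again no sums overlapped (log2 fold change 5.73, SE 0.31, adjusted p = 9.99e-71, edgeR). At 2000 UMIs per cell *Megf11* was seen in 27.6% of P0 members, 0.361% of GABAergic cells and 0.143% of photoreceptor reference cells.

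*Gm2990*, the antisense gene over the start of *Chat*, was at 67.2, 88.2, 100.1 and 53.9 CPM in the members and at 1.29, 0.247, 2.07 and 0 CPM in the others (log2 fold change 6.18, SE 0.44, adjusted p = 5.51e-43, edgeR). In P0 and P3 replicate 2 it exceeded *Chat* itself. Whether the counting used strand is not given in the sources used here, so reads of *Gm2990* and *Chat* may not be told apart where the 2 genes overlap. *Gm2990* does not overlap *Slc18a3*, which lies within *Chat* on the same strand.

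The other 7 of the 12 largest changes were in genes at lower levels. They were *Pxdc1* (log2 fold change 6.92), *Csrp3* (6.68), which encodes a LIM protein best known from muscle, *Sema3d* (6.49), a secreted guidance cue, *Scube2* (6.49), a secreted protein, *Pde11a* (6.49), a cyclic nucleotide phosphodiesterase, *Pkp1* (6.27), a desmosomal plakophilin, and *Abcc8* (6.19), the regulatory subunit of ATP-sensitive potassium channels. Their levels in members ran from 4.01 CPM of *Scube2* in P3 replicate 2 to 269 CPM of *Pde11a* at P6, each on few UMIs. All 12 genes remained called under each of the 13 to 15 alternatives that gave them a value. Leaving out a library moved the fold change by over 1.5 times for 4 of 11 of them without P0, 7 of 12 without P3 replicate 1, 6 of 12 without P3 replicate 2 and 1 of 12 without P6.

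**Figure D3:**
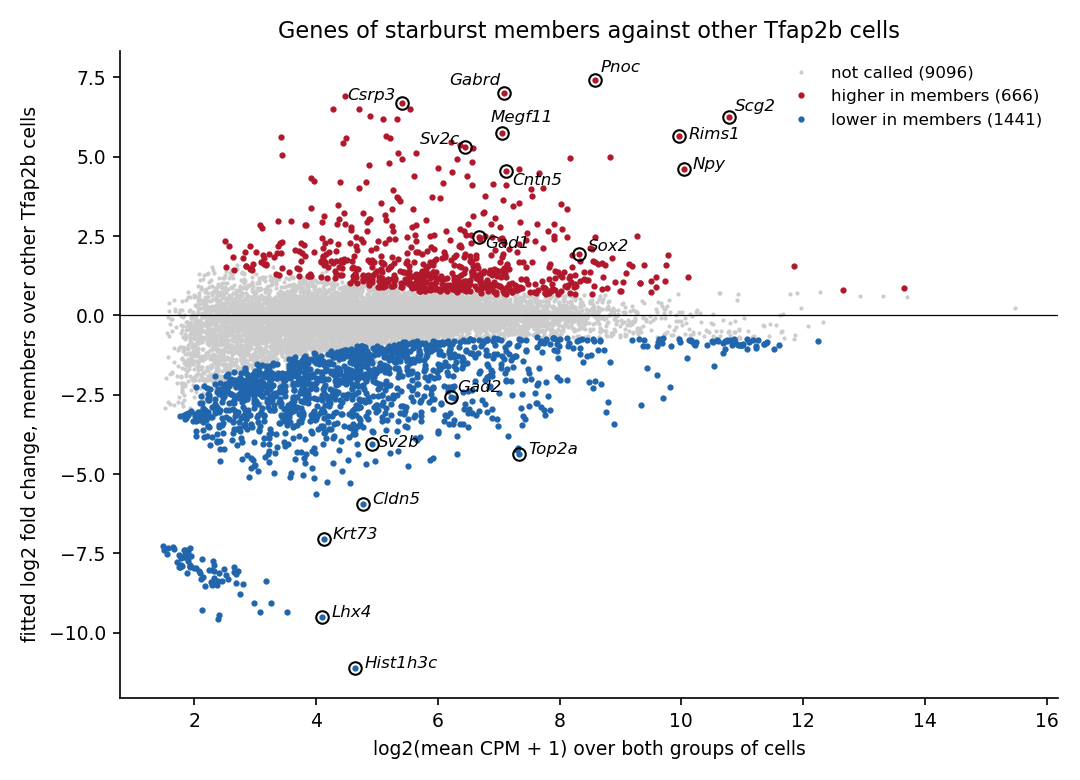
Each point is 1 gene tested: fitted log2 fold change of members over other Tfap2b cells (y axis) against log2(mean CPM + 1) over both groups (x axis), with 666 genes called higher in red, 1441 called lower in blue and the rest grey. The blue points below about -7 are mostly genes with no UMI in any member, whose fitted values are no measure of size.

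At the other end stood genes that were absent or nearly so in the members. *Hist1h3c*, a replication-dependent histone H3 gene, *Lhx4*, a LIM-homeobox gene of developing bipolar cells and photoreceptors, and *Lfng*, which modifies Notch, had 0 UMIs in all 4 member sums. Against a floor of 3 UMIs over the 4 libraries together they were at least 31.7-fold, 19.1-fold and 14.3-fold lower than in the other *Tfap2b* cells. *Cldn5*, the tight-junction claudin of endothelial cells, had 3 UMIs (ratio to the others 0.0266, counting interval 0.00548 to 0.0778), *Kif23* had 2 and *Kif4*, also a mitotic kinesin, had 1, as did *Krt73* and *Hkdc1*. *Krt73*, a keratin gene, was no longer called without P0. *Mki67* was excluded in the members and not in these comparison cells, and *Hist1h3c*, *Lfng*, *Kif23* and *Kif4* gave no value when the comparison cells had the same exclusions.

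Transmitter genes were ordered by role, starting with GABA. The members held *Gad1* rather than *Gad2*, the genes of the 2 enzymes that make GABA. *Gad1* (chr2:70553072-70602014, plus strand) was at 159, 397, 132 and 0 CPM in the members at P0, P3 replicate 1, P3 replicate 2 and P6, against 53.8, 26.2, 23.0 and 17.6 CPM in the others. It was higher in 3 of 4 libraries (log2 fold change 2.48, SE 0.28, adjusted p = 3.40e-17, edgeR), and at P6, where 3 UMIs would be 162 CPM, a level like that of the other cells was not detectable.

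*Gad2* (chr2:22622205-22693874, plus strand) ran the other way, at 24.0, 7.35, 44.1 and 0 CPM in the members and 261, 113, 49.6 and 89.4 CPM in the others. It was lower at P0 and in P3 replicate 1, but by little in P3 replicate 2 (log2 fold change -2.57, SE 0.37, adjusted p = 1.04e-10, edgeR). At P6, where 3 UMIs would be 162 CPM, the 0 of the members cannot show a lower level. At 2000 UMIs per cell *Gad2* was in 4.49% of P0 members (interval 1.82% to 9.03%), near the 3.00% of photoreceptor reference cells, and in 49.95% of the GABAergic cells, which were chosen by *Gad1* or *Gad2*. *Gad1* was in 23.7% of P0 members and 0.429% of photoreceptor reference cells.

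Of 16 genes of GABA synthesis, transport and reception tested, 8 were higher in the members and 2 lower, with a median log2 fold change of 0.71 against -0.14 for all genes. *Gabrd* led this list. *Slc32a1*, the vesicular transporter for GABA and glycine, was at 104, 198, 144 and 162 CPM in members against 54.2, 54.3, 37.2 and 47.1 CPM, higher in 4 of 4 libraries (log2 fold change 1.50, adjusted p = 6.34e-07, edgeR). *Gabbr2*, a subunit of the metabotropic GABA-B receptor, was lower on 13 UMIs (-1.40, adjusted p = 0.0447), a call lost without P0, P3 replicate 1 or P6. Without P3 replicate 2 the list gave 5 higher and 4 lower of 17, and with the same exclusions in the comparison cells 5 and 3 of 15. Against the GABAergic *Tfap2b* cells described below, with *Gad1* and *Gad2* left out, 3 of 13 tested were higher and 0 lower. The median was then 0.03, against -0.04 for all genes, so most of the list was not set apart from those cells.

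The cholinergic genes outside the rule were mostly too low to test. Of 25 listed, 8 were tested, of which 1 was higher and 2 lower, with a median of -0.82. *Chrna4*, the nicotinic alpha-4 subunit, was at 104, 125, 68.1 and 108 CPM in the members and 25.7, 8.66, 16.8 and 6.89 CPM in the others, with no overlap (log2 fold change 2.51, SE 0.30, adjusted p = 9.41e-15, edgeR). *Chrnb4*, the beta-4 subunit, had 2 UMIs in the members (-3.33, adjusted p = 0.000522), and *Lypd6*, a modulator of nicotinic receptors, had 10 (-1.96, adjusted p = 0.00494). Both of these calls were lost without P0.

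The balance of chloride transporters sets whether GABA excites or inhibits. *Slc12a5*, the neuronal chloride exporter KCC2, was at 3.60, 7.35, 12.02 and 0 CPM in the members and at 38.1, 24.6, 23.9 and 28.3 CPM in the others. The member sums of P0 and of both P3 libraries were lower (log2 fold change -2.60, SE 0.53, adjusted p = 1.43e-05, edgeR), a call lost without P0. The 0 at P6 cannot show a lower level, since 3 UMIs there would be 162 CPM. *Slc12a2*, the importer NKCC1, was not called, at 12.002, 7.35, 4.01 and 0 CPM against 15.6, 18.4, 10.6 and 21.8 CPM. Of 3 tested genes for glycine handling edgeR and DESeq2 called 0, and *Glrb* (log2 fold change 1.25) and *Gphn* (0.65) had an unadjusted p under 0.05 in edgeR.

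Vesicle and release genes were the list with the most genes called higher, 17 of 29 tested with 4 lower and a median of 0.92. Over all genes 5.94% were higher and 12.9% lower, so the lower calls of this list were near the share of all genes. *Rims1*, an active-zone scaffold, was at 654, 4168, 1362 and 1670 CPM in the members against 29.9, 23.7, 43.3 and 18.0 CPM in the others. The lowest member sum, at P0, was above the highest comparison sum (log2 fold change 5.65, SE 0.32, adjusted p = 4.64e-65, edgeR). *Rab3b*, a vesicle GTPase, was at 328, 279, 72.1 and 108 CPM against 33.8, 15.3, 14.8 and 11.1 CPM (3.26, adjusted p = 8.29e-27). The calcium sensor genes *Syt2* (4.02, on 32 UMIs) and *Syt6* (1.92) were higher too. Without P3 replicate 1 the list gave 11 higher and 4 lower of 29.

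Of the SV2 vesicle proteins, *Sv2c* and *Sv2b* went opposite ways. *Sv2c* was at 81.0, 191, 84.1 and 323 CPM in the members and at 4.25, 0.825, 4.96 and 0.766 CPM in the others (log2 fold change 5.29, SE 0.35, adjusted p = 6.53e-49, edgeR). *Sv2b* was at 0, 0, 16.0 and 0 CPM in the members and at 27.0, 42.6, 68.1 and 80.1 CPM in the others (-4.04, SE 0.55, adjusted p = 1.34e-11). Neither pair of groups overlapped, though the 0 of *Sv2b* at P6, where 3 UMIs would be 162 CPM, cannot show a lower level. The only 4 *Sv2b* UMIs of the members came from P3 replicate 2.

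**Figure D4:**
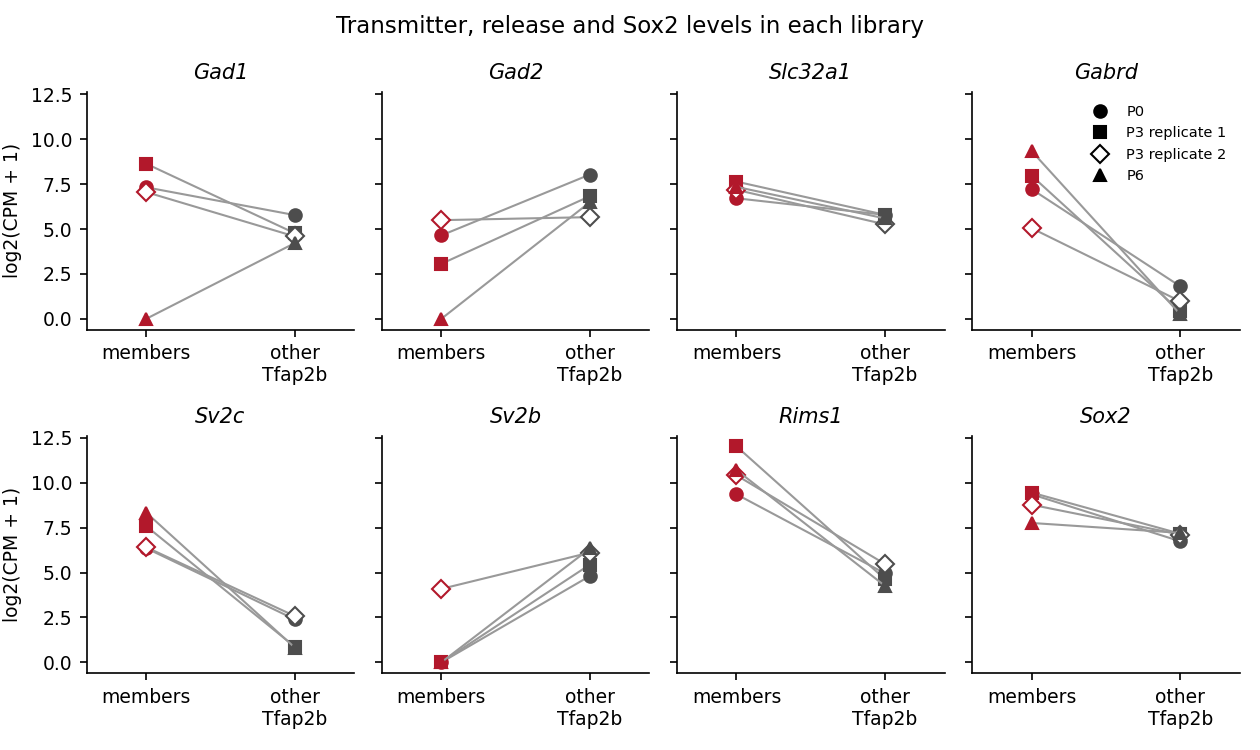
Levels of 8 genes as log2(CPM + 1) (y axis) in members and other Tfap2b cells, with a line joining the 2 sums of each library. Gabrd, Sv2c, Rims1, Slc32a1 and Sox2 are higher in the members of all 4 libraries, and Gad1 is higher in 3. Gad2 and Sv2b are lower at P0 and in both P3 libraries. Gad1, Gad2 and Sv2b have 0 UMIs in the 3 cells of P6, which cannot show a lower level.

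A list of 16 genes that earlier work ties to starburst cells, outside the rule, gave 9 higher, 1 lower (*Gad2*) and 6 not called, with a median of 0.95. *Megf11*, *Sv2c* and *Gad1* were among those higher. *Sox2*, a transcription factor gene that starburst cells keep after birth, was at 654, 698, 437 and 216 CPM in the members against 106, 142, 138 and 147 CPM (log2 fold change 1.94, SE 0.27, adjusted p = 4.43e-11, edgeR). *Sox2* is also a gene of progenitors and Müller glia, whose markers are given below. Its share of P0 members at 2000 UMIs was 65.4%, against 3.16% of GABAergic cells and 10.9% of photoreceptor reference cells.

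*Grm2*, the metabotropic glutamate receptor mGluR2, was at 49.8, 95.6, 8.01 and 53.9 CPM against 6.76, 5.69, 2.90 and 6.13 CPM (log2 fold change 3.05, adjusted p = 1.97e-11, edgeR). *Plxna2*, a semaphorin receptor gene, was higher at 323, 632, 264 and 700 CPM against 145, 94.8, 73.4 and 114 CPM (1.91, adjusted p = 3.07e-12), as was *Kcnc1*, a Kv3 potassium channel gene, at 52.2, 191, 108 and 269 CPM against 29.8, 28.4, 24.1 and 27.4 CPM (1.88, adjusted p = 5.52e-10). All 3 were higher in 4 of 4 libraries, *Grm2* on only 2 UMIs in P3 replicate 2 and 1 UMI at P6. *Sema6a*, a transmembrane semaphorin (0.96, adjusted p = 0.00202), and *Rnd3*, an atypical small GTPase (0.94, adjusted p = 0.00543), were higher in 3 of 4, and both calls were lost on leaving out P0, P3 replicate 1 or P3 replicate 2. *Six3* (-0.65), *Amigo2* (-0.73), *Kcnc2* (-0.58), *Slc12a2* (-0.65), *Calb2* (0.08) and *Pax6* (0.29) did not pass the test, and the sign for *Calb2* changed under 7 alternatives.

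Most amacrine transcription factor genes were lower in the members. Of 34 tested, 19 were lower and 4 higher, with a median of -1.75. *Prdm13*, a factor of amacrine fate, was at 4.201, 0, 24.0 and 0 CPM against 137, 89.4, 36.8 and 119 CPM (log2 fold change -3.84, SE 0.46, adjusted p = 2.38e-15, edgeR), and *Ptf1a*, which directs cells to the amacrine and horizontal fates, was at 12.6, 0, 4.01 and 0 CPM against 132, 48.1, 17.7 and 47.7 CPM (-3.32, adjusted p = 5.58e-12). *Nfix* (-4.56), *Foxn4* (-4.07), *Tfap2c* (-3.70) and *Nfib* (-3.23) were lower as well, *Tfap2c* not without P0. The list gave 11 lower without P0. Among the 4 that were higher was *Tfap2d*, a relative of *Tfap2b* singled out after its values were seen, at 68.4, 88.2, 36.0 and 53.9 CPM against 9.50, 4.54, 5.24 and 7.66 CPM (3.15, adjusted p = 1.58e-14).

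Summed markers of photoreceptors, Müller glia and progenitors, bipolar cells and non-neural cells were lower in the members. Those of ganglion cells, horizontal cells and other amacrine types were not lower in every library. For 14 photoreceptor genes the summed level was 23.4, 559, 1266 and 1132 CPM in the members and 681, 2944, 2986 and 5748 CPM in the other *Tfap2b* cells, and 12 of 13 tested were lower. *Gnat1* was at 0 in all 4 member sums. For 15 Müller glia and progenitor genes the sums were 338, 221, 1166 and 269 CPM against 2560, 3945, 3270 and 3851 CPM, and 14 of 14 tested were lower, led by *Top2a* (log2 fold change -4.37) and *Vim* (-3.81). The members had to lack *Mki67* and *Rlbp1* and these comparison cells did not. With the same exclusions in the comparison cells 11 of 13 were lower, *Top2a* at -1.42 and *Vim* at -2.85. Against the GABAergic *Tfap2b* cells described below, which lack the excluded genes too, *Top2a* was not called (-1.08, adjusted p = 0.147, edgeR) and *Vim* was lower (-2.15, adjusted p = 0.000652). P3 replicate 2 had the highest member sum in both lists, and the part of such RNA in the fold changes was not tested. Without the block the photoreceptor list gave 3 lower of 13.

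Other marker lists gave fewer tested genes. For 10 bipolar genes the member sums ran from 14.4 to 66.2 CPM, against 92.6 to 286 CPM, with 3 of 4 tested lower. For 8 non-neural genes they ran from 0 to 8.01 CPM against 21.1 to 125 CPM. *Cldn5*, the 1 gene of these tested, made up most of the others' sums, at 123, 42.4, 12.3 and 27.2 CPM. It was also in the GABAergic *Tfap2b* cells, at 134, 56.3 and 15.7 CPM at P0 and in P3 replicates 1 and 2. These sums thus describe mostly 1 gene. For 12 ganglion cell genes the members' sums of 335, 603, 725 and 377 CPM were above the others' 343, 120, 478 and 118 CPM in 3 of 4 libraries, and 1 of the 7 tested was higher. The defining ganglion genes *Pou4f3* and *Isl2* were at 0 in all 4 member sums, and 4 were lower, among them *Rbpms* (-2.99) and *Eomes* (-4.38), both lost without P0.

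For 7 horizontal cell genes the sums ran from 260 to 463 CPM in the members and from 375 to 425 CPM in the others, with 1 of 6 tested higher and 2 lower. *Lhx1* was at 0 in all 4 member sums and *Prox1* was lower (-2.73). The higher gene was *Calb1*, the calcium buffer calbindin, at 40.8, 279, 56.1 and 269 CPM against 4.71, 0.330, 3.03 and 0.192 CPM, with no overlap (5.37, SE 0.41, adjusted p = 5.21e-37, edgeR).

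Among genes used to tell other amacrine types apart, 6 of 12 tested were lower and 1 was higher. For all 24 listed the sums were 440, 3154, 2624 and 3448 CPM in the members against 574, 1341, 920 and 1399 CPM. The member sums were thus lower at P0 and higher in the later libraries, and *Npy* made up most of each. The higher gene was *Npy*, which encodes neuropeptide Y, at 359, 3073, 1790 and 2910 CPM in the members and 46.5, 37.3, 162 and 32.2 CPM in the others. P0 was the lowest member sum and still above every comparison sum (log2 fold change 4.60, SE 0.31, adjusted p = 2.79e-46, edgeR). *Npy* was in 30.8% of P0 members and 76.7% of those of P3 replicate 2 at 2000 UMIs, against 1.43% and 7.02% of photoreceptor reference cells. *Tcf4* (-2.28) and *Lhx9* (-2.21), transcription factor genes of other amacrine types, were lower, the latter not without P0.

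Adhesion and guidance genes went both ways, with 14 of 64 tested higher, 21 lower and a median of -0.60. The immunoglobulin-family gene *Cntn5* was at 94.2, 140, 88.1 and 754 CPM in members against 3.7985, 7.34, 6.83 and 7.28 CPM (log2 fold change 4.54, SE 0.30, adjusted p = 2.42e-48, edgeR). *Cntnap2*, of the same list, was at 287, 448, 284 and 377 CPM against 23.6, 18.2, 31.2 and 20.3 CPM (3.76, adjusted p = 6.96e-42, edgeR). Neither gene's groups overlapped. The cadherin *Cdh6* was at 160, 198, 0 and 323 CPM against 8.74, 6.76, 0.552 and 9.77 CPM (4.40, adjusted p = 5.79e-36), with no UMI in P3 replicate 2. *Slit1*, a repellent cue, had 0 UMIs in the members and was at least 3.31-fold lower against the floor. Without P0 the list gave 13 higher and 1 lower of 63.

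Channel and receptor lists had smaller shares of calls than the vesicle list. Of 31 ion channel genes tested, 10 were higher and 4 lower, against 5.94% and 12.9% of all genes. The lower calls were thus near the share of all genes, and the higher ones above it. *Cacna1b*, the N-type calcium channel, was at 18.6, 73.5, 92.1 and 162 CPM in members against 9.65, 9.81, 19.7 and 13.2 CPM (log2 fold change 1.98, adjusted p = 9.40e-07, edgeR). Of 16 glutamate receptor genes 5 were higher and 3 lower, and only 1 and 1 of 13 when the comparison cells had the same exclusions. *Gria2*, an AMPA receptor subunit gene, was among the first (1.17, adjusted p = 4.08e-05) and was lost with those exclusions. Of 11 calcium-binding genes 3 were higher and 3 lower, and *Hpcal1*, a neuronal calcium sensor, was at 265, 375, 116 and 53.9 CPM against 19.1, 11.5, 19.1 and 8.43 CPM (3.75, adjusted p = 1.94e-35). Of 17 genes of young neurons 5 were higher and 1, *Sox11*, was lower (-2.07). None of the 5 remained called without P3 replicate 1.

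Genes that no list held were singled out after their values were seen. *Slc10a4*, which encodes a vesicle protein found in cholinergic and aminergic neurons, was at 91.2, 88.2, 80.1 and 485 CPM in the members and at 1.98, 1.73, 5.79 and 1.92 CPM in the others (log2 fold change 5.27, SE 0.36, adjusted p = 1.78e-44, edgeR). *Kcnk2*, a leak potassium channel gene, was at 478, 566, 493 and 700 CPM against 23.2, 10.1, 23.0 and 7.47 CPM (4.97, SE 0.28, adjusted p = 3.21e-66). Neither gene's groups overlapped.

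A closer comparison set the members beside GABAergic *Tfap2b* cells, which held *Gad1* or *Gad2* and none of the 5 excluded genes. P6 was left out, because its 3 members were under the minimum of 10 cells for a sum. That minimum was not applied in the first comparison, where the same 3 members stood as a library. Here 3 libraries entered, with 1122 GABAergic cells at P0 and 479 and 190 in P3 replicates 1 and 2. *Pnoc*, *Abcc8*, *Gabrd*, the antisense gene *Hopxos* and *Csrp3* showed the largest changes, all higher in the members. Of 9545 genes tested, outside the rule and *Gad1* and *Gad2*, 417 were higher (4.37%) and 436 lower (4.57%) in the members in edgeR's quasi-likelihood test, or 8.94% together, with a median of -0.04. This comparison shares its member sums with the first one and is not independent of it.

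*Pnoc* was at 321, 1544 and 260 CPM in the members at P0 and in P3 replicates 1 and 2, and at 1.18, 0 and 8.71 CPM in the GABAergic cells (log2 fold change 8.18, SE 0.66, adjusted p = 6.12e-06, edgeR). *Abcc8* was at 33.6, 29.4 and 40.1 CPM against 0.147, 0 and 0 CPM (7.81, adjusted p = 8.95e-06), and *Gabrd* at 148, 250 and 32.0 CPM against 1.18, 0 and 0.871 CPM (7.51, adjusted p = 1.81e-06). *Hopxos*, named as antisense to *Hopx*, was at 19.8, 22.1 and 36.0 CPM against 0, 0 and 0.871 CPM (7.17, adjusted p = 7.49e-05). Each member sum of these genes was above each GABAergic sum.

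The 5 smallest were *Lhx4*, *Krt73*, *Cldn5*, *St18* and *Pyy*. *St18*, a zinc-finger factor gene, was at 1.80, 0 and 0 CPM in the members and 65.9, 41.8 and 12.2 CPM in the GABAergic cells (-5.20, adjusted p = 3.77e-05, edgeR). *Pyy*, which encodes peptide YY, was at 0, 0 and 8.01 CPM against 35.4, 0 and 87.1 CPM (-5.16, adjusted p = 0.000622) and was at 0 in both groups of P3 replicate 1. *Krt73* had 1 UMI in the members and *Lhx4* had none.

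*Sox2* stood further apart from the GABAergic cells, at 654, 698 and 437 CPM against 26.3, 17.9 and 83.7 CPM (log2 fold change 4.14, SE 0.42, adjusted p = 4.45e-05, edgeR). *Megf11* (5.94), *Rims1* (5.38), *Sv2c* (5.21), *Chrna4* (2.53) and *Npy* (3.79) were higher in 3 of 3 libraries. *Gad1* and *Gad2* chose the GABAergic cells, so their levels are a description: *Gad1* was at 89.7, 100.03 and 98.5 CPM and *Gad2* at 424, 323 and 180 CPM in those cells. *Slc12a5* was again lower, at 3.60, 7.35 and 12.02 CPM against 49.6, 62.0 and 40.1 CPM (-3.17, adjusted p = 0.000404).

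By list, 7 of the 13 tested genes tied to starburst cells were higher, 10 of 27 vesicle genes were higher and 4 lower, and 12 of 55 adhesion genes were higher and 15 lower. Amacrine transcription factor genes were 2 higher and 19 lower of 33, with a median of -2.05, *Prdm13* (-4.14), *Tfap2c* (-4.18) and *Ptf1a* (-3.39) among the lower. Marker lists of other cells were less marked than against the broad group, with 6 of 13 photoreceptor and 6 of 13 Müller glia and progenitor genes lower. Calls fell to 218 higher and 93 lower without P0, 284 and 266 without P3 replicate 1, and rose to 582 and 844 without P3 replicate 2. Without the block they were 111 and 22, and 2 higher and 2 lower for the transcription factor list.

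*Fezf1* is known to mark ON starburst cells, so members with and without a *Fezf1* UMI were set side by side. Only P0 held at least 10 cells on both sides, 39 with *Fezf1* and 117 without, so values are given and no test. Cells with no *Fezf1* UMI may still express it. Of 6274 genes with enough UMIs, 83 were at least 2-fold higher in the *Fezf1* cells (1.32%) and 166 at least 2-fold lower (2.65%).

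*Tenm3*, a teneurin adhesion gene, was at 9.49 CPM in the *Fezf1* cells and 127 CPM in the others (ratio 0.0747, counting interval 0.0201 to 0.195), in 3 of 39 and 70 of 117 cells. It had the largest fall by fold. *Rnd3* was at 166 and 922 CPM (ratio 0.180, 0.139 to 0.229), in 23 of 39 and 102 of 117 cells. *Cntn5* went the other way, at 173 and 67.5 CPM (ratio 2.57, 1.85 to 3.55), in 32 of 39 and 35 of 117 cells. *Calb2* was at 11.9 and 31.3 CPM (ratio 0.378, 0.116 to 0.961).

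The 5 genes furthest above in the *Fezf1* cells were *D930028M14Rik* (6.19-fold), *Hes5* (5.41-fold), *Peg10* (4.996-fold), *Nefl* (4.92-fold) and *Ephb1* (4.34-fold), a guidance receptor gene, and the 5 furthest below were *Tenm3*, *Zfp467*, *Rabl2*, *Tbc1d17* and *Klhl12*, the last 4 on 1 UMI each. Of the genes of the rule, the ratio was 1.00 for *Slc18a3*, 0.943 for *Isl1*, 0.933 for *Megf10* and 1.50 for *Chat* (0.909 to 2.43). The genes tied to starburst cells as a whole were spread widely. *Rnd3* and *Calb2*, given above, *Amigo2* (0.295, on 1 and 10 UMIs), *Kcnc1* (0.615, 0.327 to 1.08), *Gad2* (0.738) and *Grm2* (0.760) were below 1, *Plxna2* was at 0.938, *Six3* at 0.962, *Sema6a* at 1.04, *Pax6* at 1.07 and *Gad1* at 1.08, and *Sox2* (1.17), *Sv2c* (1.29) and *Megf11* (1.36, 1.05 to 1.75) were above. *Slc12a2* (0.984) and *Kcnc2* (1.11) had too few UMIs for the count of 2-fold changes. The same 39 and 117 cells resulted when the other 5 markers alone were required to give at least 2.

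In P3 replicate 2, with 6 and 37 cells, *Rnd3* was at 0 CPM (upper limit 124) and 305 CPM, *Tenm3* at 33.5 and 91.0 CPM, and *Cntn5* at 301 and 59.1 CPM. *Cntn5* was in 5 of 6 *Fezf1* cells and 10 of 37 others. The intervals of *Rnd3* and *Cntn5* did not overlap between the sets, and those of *Tenm3* did. In P3 replicate 1 and at P6, 1 and 2 cells held *Fezf1*, too few to compare.

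**Figure D5:**
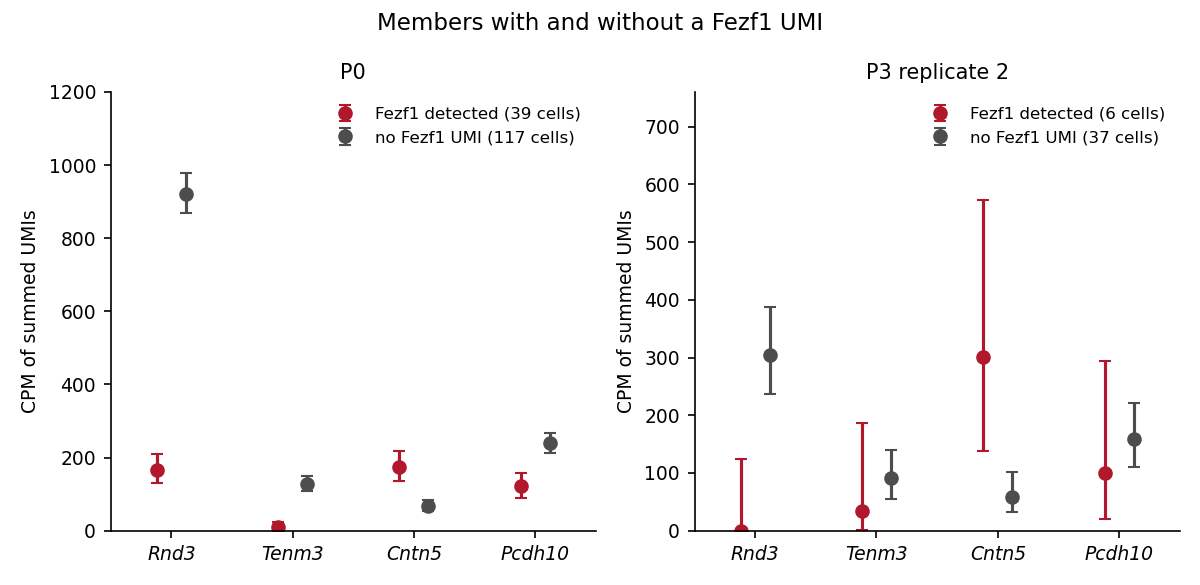
CPM of summed UMIs (y axis) for Rnd3, Tenm3, Cntn5 and Pcdh10 in members with a Fezf1 UMI (red) and without (grey), at P0 (39 and 117 cells) and in P3 replicate 2 (6 and 37 cells), with exact 95% Poisson intervals. Rnd3 is lower and Cntn5 higher in the Fezf1 cells of both libraries, while the Tenm3 and Pcdh10 intervals overlap in P3 replicate 2.

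Change with age could be described only by size, since P0 and P6 are 1 library each and P6 held 3 members with 18559 UMIs. Genes were counted when P6 and P0 differed at least 2-fold with both P3 libraries between them. A gene needed at least 30 UMIs over P0 and P6 together, and a count of 0 was set to 3 UMIs for the ratio. Of 6327 genes, 981 were higher at P6 (15.5%) and 144 lower (2.28%), and with at least 100 UMIs per gene 187 were higher. In the P6 members 1 UMI is 53.9 CPM and 3 UMIs are 162 CPM. A gene low at P0 could thus count as higher on few UMIs, while a fall needed a high level at P0. The counts of rises and falls therefore cannot be weighed against each other. P3 replicate 1, with 14 members, against P0 gave 488 of 6566 genes at least 2-fold higher (7.43%) and 601 lower (9.15%).

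*Otx2*, a homeobox gene of photoreceptor and bipolar precursors and 1 of the 14 genes of the photoreceptor list, showed the largest rise, at 7.80, 110, 180 and 916 CPM at P0, P3 replicate 1, P3 replicate 2 and P6 (117-fold, 53.7 to 263). It was also in the other *Tfap2b* cells at 152, 593, 522 and 808 CPM and in the GABAergic cells at 91.7, 269, 301 and 384 CPM. At P6 *Otx2* gave 17 of the 21 UMIs of the photoreceptor list in the members, and 11 of the 14 genes, among them *Nrl*, *Sag*, *Pdc* and *Gngt2*, were at 0.

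The next largest rises were *Dhx32* (34.5-fold), *Edil3* (26.7-fold), *Mgarp* (16.3-fold), *Map7* (14.96-fold), *Btg2* (13.8-fold), *Tcf4* (12.2-fold) and *Snhg11* (11.2-fold), each on 4 to 11 UMIs at P6. Of the falls, *Tubb2b*, a tubulin gene of growing neurons, was at 1458, 1014, 789 and 216 CPM (ratio 0.148, 0.0402 to 0.379) and *Cfl1*, an actin-severing factor gene, at 2001, 1551, 1474 and 377 CPM (ratio 0.188, 0.0757 to 0.389). *Zc3h15*, *Smarce1*, *Arpc3*, *Khdrbs1*, *Srsf2* and *Qdpr* had 1 UMI each at P6.

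Between P0 and P3 replicate 1 several genes named above differed more than 2-fold, and the second P3 library did not always show the same. In P3 replicate 1 *Npy* was 8.55-fold higher (7.53 to 9.70), *Rims1* 6.37-fold (5.75 to 7.06), *Csrp3* 18.0-fold (8.91 to 37.2) and *Chat* 4.44-fold (2.80 to 6.87). In P3 replicate 2 the levels of *Npy*, *Rims1* and *Csrp3*, 1790, 1362 and 52.1 CPM, were above those of P0 as well, while *Chat* was lower, at 20.03 CPM against 48.0 CPM at P0. *Pnoc* at 321, 1544 and 260 CPM, *Scg2* at 1083, 4095 and 344 CPM and *Gabrd* at 148, 250 and 32.0 CPM at P0 and in P3 replicates 1 and 2 were likewise above P0 in the first P3 library and below it in the second.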

How the data were processed

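Single-cell RNA was measured in 6 droplet libraries. The authors made UMI counts per gene and barcode with Cell Ranger (6.1.2 in the file headers that name a version) on mm10, and the deposited counts were used unnormalized. Libraries carried 32285 or 27998 gene identifiers, and the 27040 shared ones were used. Counts were summed over the cells of a group in each library and fitted with edgeR 4.0.16 (TMM, filterByExpr, quasi-likelihood, library as block) in R 4.3.3, with Benjamini-Hochberg adjustment over all genes at 0.05. Libraries, not cells, were the samples, so p-values rest on the spread between libraries, which may be technical. The first and second comparison left 3 and 2 residual degrees of freedom. In the first edgeR pooled the spread fully across genes, and in the second in part. A gene's own spread therefore did not set its p-value in the first, and very small p-values there may overstate how alike the libraries were. Both sums of a library come from the same pool, which is the source of the pairing. The correlation of their deviations was 0.0947 to 0.458 in the first comparison. Levels are CPM of summed UMIs, with exact Poisson intervals. On simulated data for the first comparison (11021 genes) 25 of 99 genes changed 2-fold and 93 of 97 changed 4-fold were recovered, with 8 false calls, and for the second (9291 genes) 55 of 100 and 97 of 99, with 6. Doublets were called against simulated doublets (8.34%, 9.84%, 2.59% and 10.9% of cells at P0, P3 replicate 1, P3 replicate 2 and P6), kept, and left out in an alternative. Members, lists and tests were chosen with earlier results of these data known. Genes named were those of the rule, the 12 largest and 8 smallest called changes with the same direction in 4 of 4 libraries and at least 20 CPM on average in the higher group, up to 6 called genes per list by size of fold change with every gene of the list tied to starburst cells, the 5 most changed each way against GABAergic cells and by *Fezf1*, and the 8 largest rises and falls over age. Others are said to be singled out after their values were seen. Alternatives were DESeq2 1.42.0, RLE size factors, no filter, no block, leaving out each library, at most 3999 genes or at least 4000 UMIs per cell, no doublets, at least 3 markers, a required cholinergic gene and the same exclusions in the comparison cells. The last but one and a fit of P0 with P3 replicate 2 only were chosen after seeing the data. Some genes of the lists are counted but not reported by name here.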

Additional observations from a re-analysis of the deposited data

Results flagged for a closer look

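In a library outside the comparisons, E16, 20 of 2714 kept cells met the same rule, 0.737% (exact interval 0.451% to 1.14%), above the 0.111% that 3 cells would give. Of these 20 cells, 20 held *Isl1*, 14 *Megf10*, 8 *Fezf1*, 2 *Slc18a3* and 0 *Chat*. Only 2 markers were held by 17 of them, and 11 had *Isl1* and *Megf10* alone. A further 72 *Tfap2b* cells of E16 had at least 2 markers but were left out for an excluded gene, against 19 at P0. At E14, 2 of 15553 cells met the rule, below the floor of 3 cells. E16 was counted on the older gene list, as was P3 replicate 2.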

How the results depend on the processing

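Against other *Tfap2b* cells, DESeq2 called 408 genes higher and 812 lower (an adjusted p was not given for 435 genes), no replicate block 369 and 771, and comparison cells with the same exclusions 779 lower. Leaving out each library gave 395 to 717 higher and 499 to 1284 lower. Against GABAergic cells, no replicate block gave 111 higher and 22 lower, DESeq2 180 lower, no filter on low counts 774 lower, the lower maximum of genes per cell that the study used 284 lower and cells of at least 4000 UMIs 281 lower, and leaving out each library gave 218 to 582 higher and 93 to 844 lower. The cause was not tested, apart from the fewer sums when a library is left out. The share of members was 0.967% at P0 and 0.803% in P3 replicate 2 after thinning, and in P3 replicate 2 also 0.771% with at least 3 markers and 0.835% with a cholinergic gene required. Over age, at least 100 UMIs gave 187 higher genes, and P3 replicate 1 in place of P6 gave 488 higher and 601 lower. Of 1704 values for named genes under alternatives, 1535 kept direction and call, 159 lost the call, 1 gained it and 9 changed sign. Of the named genes called against other *Tfap2b* cells that kept a value, 27 of 100 were no longer called without P0, 17 of 102 without P3 replicate 1, 5 of 100 without P3 replicate 2 and 6 of 102 without P6. *Calb2*, not called, fitted at -0.14 with DESeq2, -0.0153 with RLE size factors, -0.018 with cells of at least 4000 UMIs, -0.0689 without called doublets, -0.78 to 0.97 when each library was left out, and -0.72 with P0 and P3 replicate 2 only. *Sncg* fitted at 0.68 with DESeq2 and *Kcna1* at -5.07 without P3 replicate 2 to 0.19 without P0. RLE size factors moved the median of all genes from -0.14 to -0.24. No paired analysis by *Fezf1* was possible because only P0 held at least 10 cells on both sides, so none of its alternatives was run except the choice by the 5 other markers. Few members limit the depth: at P6, 3 UMIs equal 162 CPM.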
